A study of Mus musculus with 2 samples.

Results

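The C-type lectin pattern receptors examined here are a group of 6 listed mouse genes, Clec4e, Clec4d, Clec4n, Clec5a, Clec7a and Clec12a. They were chosen by gene symbol, with earlier results of these data known. Of these, 5 were matched among the 31053 genes listed for each library, and Clec7a was not analysed here. The study measured single-cell RNA in cultures of bone marrow cells from 129Sv mice, in 1 library per group. Cells of both groups were grown with 50 ng/ml macrophage colony-stimulating factor (M-CSF, which drives marrow cells towards macrophages) and 10% fetal bovine serum, with fresh medium on day 3 and day 6. On day 7, 1 culture received 1 µg/ml of a truncated form of Tamm-Horsfall protein (THP, or uromodulin, a kidney protein that normally polymerizes and here could not), and the other received 5% dextrose as vehicle, each for 18 h. The sex and age of the mice and the number that gave marrow were not given in the sources used here.

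These receptors sit on myeloid cells and bind sugars and lipids of microbes or material from dead cells. Clec4e (Mincle), Clec4d (MCL) and Clec4n (Dectin-2) pair with the adaptor Fcer1g, and Clec5a (MDL-1) pairs with Tyrobp (DAP12). Ligand binding lets the kinase Syk dock on the phosphorylated adaptor, and the scaffold Card9 with Bcl10 and Malt1 carries the signal to NF-kB and cytokine genes. Clec12a (MICL) differs in that its own tail recruits phosphatases such as Ptpn6, which restrain activation.

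All 5 genes lie on chromosome 6 of GRCm38 in the GENCODE annotation. Clec4n (ENSMUSG00000023349, chr6:123229843-123247021, plus strand), Clec4d (ENSMUSG00000030144, chr6:123262111-123275265, plus strand) and Clec4e (ENSMUSG00000030142, chr6:123281789-123289870, minus strand) are neighbours within 60.0 kb. Clec12a (ENSMUSG00000053063, chr6:129342691-129365303, plus strand) lies 6053 kb from the end of Clec4e, and Clec5a (ENSMUSG00000029915, chr6:40574894-40585821, minus strand) lies apart from all of these. No other annotated gene overlaps any of the 5, and no stretch of 90 bases of their transcripts occurs in a transcript of another gene.

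The 250 bases before the RefSeq start of 4 of these genes (GRCm38.p6, 5′ to 3′ on each gene's strand) are shown because Clec4e and Clec4d are neighbours whose RNA was higher in the THP library to unlike degrees, with Clec5a and Clec12a beside them for comparison. Capitals mark every match, on either strand, to 5 motifs: the PU.1 box GAGGAA, the C/EBP motif TTNCNNAA, the AP-1 motif TGANTCA, the NF-kB motif (GGG and CC with 5 bases of any kind between them) and the interferon regulatory factor (IRF) motif (GAAA and GAAA with 2 bases of any kind between them). The windows are chr6:123289872-123290121 (minus strand) for Clec4e, chr6:123261857-123262106 (plus strand) for Clec4d, chr6:40585806-40586055 (minus strand) for Clec5a and chr6:129349994-129350243 (plus strand) for Clec12a. The last begins inside the annotated Clec12a gene, because RefSeq starts the transcript further downstream.
Clec4e: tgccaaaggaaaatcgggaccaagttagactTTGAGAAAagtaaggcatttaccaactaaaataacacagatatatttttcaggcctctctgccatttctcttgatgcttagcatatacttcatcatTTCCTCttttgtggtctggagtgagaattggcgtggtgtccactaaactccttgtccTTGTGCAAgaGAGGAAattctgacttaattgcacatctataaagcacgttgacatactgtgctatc
Clec4d: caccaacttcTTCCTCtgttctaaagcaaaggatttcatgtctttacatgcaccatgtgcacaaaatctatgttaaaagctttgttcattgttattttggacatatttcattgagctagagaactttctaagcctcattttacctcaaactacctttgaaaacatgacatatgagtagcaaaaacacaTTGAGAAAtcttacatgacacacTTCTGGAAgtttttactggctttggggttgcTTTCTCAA
Clec5a: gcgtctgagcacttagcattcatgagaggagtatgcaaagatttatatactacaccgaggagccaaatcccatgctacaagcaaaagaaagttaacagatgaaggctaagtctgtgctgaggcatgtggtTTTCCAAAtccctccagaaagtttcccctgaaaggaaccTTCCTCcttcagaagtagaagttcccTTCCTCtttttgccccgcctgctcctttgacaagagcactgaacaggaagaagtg
Clec12a: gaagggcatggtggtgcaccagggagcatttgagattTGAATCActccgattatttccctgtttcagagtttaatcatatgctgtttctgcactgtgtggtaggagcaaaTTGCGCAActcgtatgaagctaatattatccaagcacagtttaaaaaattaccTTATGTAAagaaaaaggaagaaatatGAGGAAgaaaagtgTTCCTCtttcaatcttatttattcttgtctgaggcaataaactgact

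Each of the 4 windows held at least 1 PU.1 box and at least 1 C/EBP match. Across 32851 mouse promoters of the same length, 23.2% held the PU.1 box and 36.9% the C/EBP motif, on either strand. Clec4e has its PU.1 boxes 123 and 56 bases and its C/EBP matches 219 and 66 bases before the start. In Clec4d a single PU.1 box lay 240 bases before the start, and 3 C/EBP matches lay within 62 bases of it. Of the 4 windows, that of Clec12a alone held an AP-1 match, 213 bases before the start, against 6.75% of all promoters. None of the 4 held the NF-kB motif (45.8% of promoters) or the IRF motif (2.98%) in these letters. A match describes letters in a window and was not tied to any measured binding.

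After a filter on genes, UMIs and mitochondrial share, 12123 of 13193 THP barcodes and 10978 of 11584 vehicle barcodes were kept, with 224825484 and 207662132 UMIs (unique molecular identifiers, each 1 captured RNA molecule) and medians of 16113 and 17223 per cell. The libraries shared 38 kept barcode sequences. With 1 library per group there is no replicate error, no test and no p-value. Intervals are 95% and cover counting error only, and treatment cannot be told apart from culture dish or library preparation. A level is given as CPM, UMIs of a gene per 1000000 UMIs, and a difference as the log2 ratio of CPM + 1, THP over vehicle. The size rule called a gene when it reached 10 CPM in either library and differed by 2-fold or more.

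Summed over all kept cells, Clec4e was higher in the THP library. Its level was 323.6 CPM (321.2 to 325.9) after THP and 93.3 CPM (92.0 to 94.6) after vehicle, which is 3.44-fold, or 1.78 on the log2 scale (1.77 to 1.82). Clec4d reached 727.5 CPM (724.0 to 731.1) after THP and 411.4 CPM (408.6 to 414.2) after vehicle, 1.77-fold or 0.82 on the log2 scale. The other genes differed by less. Levels of Clec5a were 115.6 CPM (114.2 to 117.0) and 95.6 CPM (94.3 to 96.9), THP first, with a log2 ratio of 0.27. Those of Clec4n were 75.0 CPM (73.9 to 76.2) and 65.3 CPM (64.2 to 66.4), with a log2 ratio of 0.20. Clec12a stood at 379.4 CPM (376.8 to 381.9) and 331.6 CPM (329.1 to 334.1), with a log2 ratio of 0.19. In every case the counting intervals of the libraries did not overlap.

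Of the 5 genes, Clec4e alone passed the 2-fold size rule, as higher in THP, and none passed it as lower. Among all 8012 genes at 10 CPM or more, 0.911% passed as higher (73 genes) and 2.97% as lower (238 genes). The median gene had a log2 ratio of -0.18, so relative to it Clec4e stood at 1.96, Clec4d at 1.00, Clec5a at 0.45, Clec4n at 0.38 and Clec12a at 0.37. Clec4e was at percentile 99.7 of these genes and Clec4d at 98.7, whereas Clec5a was at 91.5, Clec4n at 86.7 and Clec12a at 86.4. Scaling by TMM factors, which moved the median of all genes to 0.11 and turned the calls to 138 higher and 69 lower, brought Clec4d past the 2-fold rule with a log2 ratio of 1.11.

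Across all genes, ratios were lower for longer transcripts, as the plot of ratio by transcript length shows, and the receptor genes differ in length. The longest annotated Clec4e transcript has 4804 bases, a length at which most genes were lower in THP. A corrected ratio was made by taking off the running median over length and adding back the median of all genes, -0.18. For Clec4e it was 1.98. Clec4d, with 1323 bases, had a corrected ratio of 0.55, and Clec4n, with 1404 bases, one of -0.05. Those of Clec5a and Clec12a were 0.34 and 0.18. The small ratio of Clec4n thus turned below 0 on this scale, but it stayed above the median of all genes that had been added back.

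**Figure D1:**
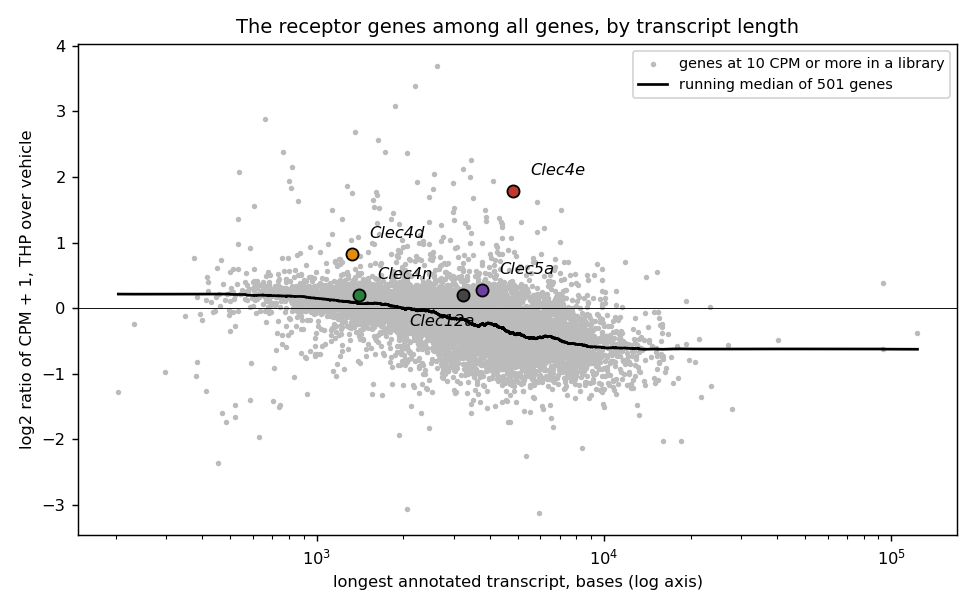
Log2 ratio of CPM + 1, THP over vehicle, against the longest annotated transcript (log axis) for genes at 10 CPM or more in a library (grey points), with the running median over length (line) and the 5 receptor genes (coloured points). Clec4e, at 4804 bases and 1.78, lies far above the line, while Clec4n and Clec4d, at 1404 and 1323 bases, lie where the line is above 0.

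The mix of cells differed between the libraries. Summed neutrophil markers (8 genes, of which 6 in THP and 7 in vehicle were at 10 CPM or more) had 21600 CPM in THP and 26737 CPM in vehicle, myeloid progenitor markers (5 of 5 genes at 10 CPM or more in both) 2774 and 4575 CPM, and macrophage markers (6 and 7 of 7) 1408 and 1126 CPM. In such sums, more cells of a type and more RNA per cell cannot be told apart. Cells were therefore sorted by summed marker genes into 7 leukocyte gates, none of which used a receptor gene. The macrophage-like gate (markers such as Adgre1, C1qa, C1qb, C1qc, Mertk and Csf1r) held 4938 THP and 3125 vehicle cells, or 40.7% and 28.5% of kept cells, although the labels call all of them macrophages. The other gates were mature neutrophil-like (282 THP and 467 vehicle cells), immature neutrophil-like (1191 and 1623), myeloid progenitor-like (1100 and 1404), monocyte-like (414 and 575), osteoclast-like (552 and 446) and MHC class II-high (813 and 890). A stromal-like gate (51 cells in each library), whose cells should lack these receptors, served as background. Its receptor UMIs sat in a part of its cells. At full depth, Clec4d was seen in 15 of 51 vehicle cells (100 UMIs) and Clec4n in 5 of 51 THP cells (24 UMIs). Whether free RNA or stromal cells joined with a leukocyte gave these UMIs was not tested, and readings against this background carry that limit. A B cell-like gate (56 THP and 44 vehicle cells) was not used as background and had unlike levels. Clec4e there was at 63.2 CPM (34.55 to 106.0) in THP and 5.34 CPM in vehicle, from 14 UMIs and 1 UMI. Clec4d was at 158.0 CPM (110.0 to 219.7) and 21.3 CPM, from 35 and 4 UMIs. Whether background differs between gates and libraries was not tested. The 2719 THP and 2344 vehicle cells in no gate had Clec4e at 331.7 and 103.6 CPM and Clec4d at 568.0 and 329.0 CPM.

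Each gate is a range of a score and not a bounded type. Within 25% above its limit lay 343 THP and 252 vehicle cells of the macrophage-like gate, 128 and 95 of the osteoclast-like gate and 80 and 79 of the monocyte-like gate. When cells were clustered without the receptor genes, macrophage-like cells fell mostly into clusters of 1 library each, cluster 0 with 4707 THP and 100 vehicle cells and cluster 2 with 79 and 2221. Whether that split reflects the treatment or the library cannot be told apart.

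Clec4e, the Mincle gene, was at least 2-fold higher in THP in 7 of 7 gates. Its level was highest in mature neutrophil-like cells, with 1248 CPM (1168 to 1332) in THP and 363.1 CPM (328.4 to 400.4) in vehicle, a log2 ratio of 1.78. Immature neutrophil-like cells had 304.3 CPM (291.8 to 317.1) and 74.8 CPM (69.8 to 80.1), the highest log2 ratio of the gates at 2.01. These gates also held cells of low depth, with medians of 2068 and 1797 UMIs in the mature gate. The order of gates given here is therefore by CPM. Per cell, the mature gate had 3.195 Clec4e UMIs in THP and 0.859 in vehicle.

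In macrophage-like cells Clec4e had 375.3 CPM (371.9 to 378.7) in THP and 105.4 CPM (103.1 to 107.6) in vehicle, a log2 ratio of 1.82, or 9.34 against 2.73 UMIs per cell. The MHC class II-high gate had 324.6 and 113.8 CPM (log2 ratio 1.51) and the monocyte-like gate 340.9 and 147.4 CPM, the lowest log2 ratio of the gates at 1.20. Osteoclast-like cells had 139.1 and 41.8 CPM (log2 ratio 1.71), and myeloid progenitor-like cells, the lowest gate in both libraries, 106.7 and 39.2 CPM (log2 ratio 1.42). Macrophage-like cells ranked 2 among the gates in THP and 4 in vehicle. Neighbours in the order with overlapping intervals were the monocyte-like, MHC class II-high and immature neutrophil-like gates in THP, and the osteoclast-like and myeloid progenitor-like gates in vehicle. Stromal-like cells had 8.55 CPM (3.91 to 16.2) in THP and 8.40 CPM in vehicle, below every leukocyte gate in both libraries.

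Among the 5734 genes at 10 CPM or more in each of the 7 gates, 0.366% were at least 2-fold higher in THP in every gate, and 11.9% were higher in every gate at any size. Clec4e met the first condition. Clec4e, Clec4d and Clec5a met the second, Clec12a did not, and Clec4n was too low in myeloid progenitor-like cells to be counted. In the monocyte-like, myeloid progenitor-like, osteoclast-like, macrophage-like and MHC class II-high gates Clec4e was the single receptor gene past 2-fold higher, where 0.76%, 0.668%, 0.751%, 1.01% and 1.13% of all genes were. No receptor gene was 2-fold lower in any of the 7 gates. The shares of all genes that were 2-fold lower were 20.7% in the mature and 5.36% in the immature neutrophil-like gate, 2.3% in the myeloid progenitor-like, 2.76% in the monocyte-like, 2.33% in the macrophage-like, 2.1% in the osteoclast-like and 4.53% in the MHC class II-high gate. The macrophage-like gate held 63.4% of the Clec4e UMIs of the THP library and 44.1% of those of the vehicle library. Of all UMIs, it held 122925399 of 224825484 in THP and 81127467 of 207662132 in vehicle. Its larger size in THP enters these shares and those of Clec4d below.

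**Figure D2:**
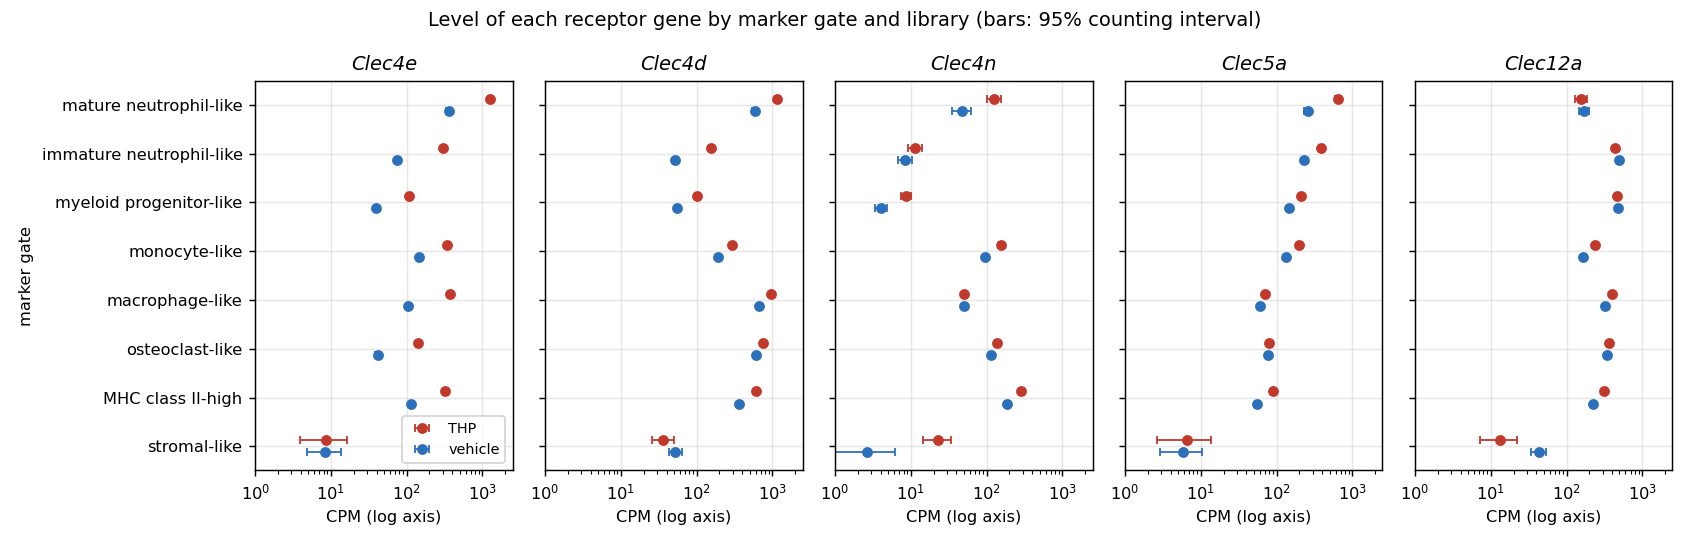
Level of each receptor gene in CPM (log axis) in 7 leukocyte gates and the stromal-like background gate, for the THP library (red) and the vehicle library (blue), with 95% Poisson counting intervals as bars. The Clec4e points of the libraries are apart in all 7 leukocyte gates and overlap in stromal-like cells at 8.55 and 8.40 CPM.

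Clec4d, the gene of MCL, which is known to associate with Mincle at the cell surface, was higher in THP in 7 of 7 gates and past the 2-fold rule in 1. That gate was the immature neutrophil-like one, with 154.8 CPM (145.9 to 164.0) in THP and 52.3 CPM (48.1 to 56.8) in vehicle, a log2 ratio of 1.55. The vehicle level there was no higher than the 52.5 CPM of vehicle stromal-like cells, so it was not distinguishable from background and the size of this ratio was not read. The THP level was above the 36.1 CPM (25.5 to 49.5) of THP stromal-like cells, but not above the 158.0 CPM (110.0 to 219.7) of THP B cell-like cells. By the size rule 2 of the 5 receptor genes passed as higher in this gate, Clec4e and with those limits Clec4d, against 1.71% of all genes. Mature neutrophil-like cells had 1165 and 589.5 CPM (log2 ratio 0.98). Per cell they had 2.98 Clec4d UMIs in THP and 1.39 in vehicle, against 0.75 and 1.96 in stromal-like cells of greater depth. By that measure the vehicle level was not above background.

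The macrophage-like gate had 953.3 CPM (947.8 to 958.7) of Clec4d in THP and 657.6 CPM (652.0 to 663.2) in vehicle, a log2 ratio of 0.53, and it held 71.6% and 62.5% of each library's Clec4d UMIs. Osteoclast-like cells had 757.9 and 610.5 CPM, the lowest log2 ratio of the gates at 0.31. The remaining gates lay between, with 602.7 and 356.9 CPM in MHC class II-high cells, 289.9 and 189.8 CPM in monocyte-like cells and 101.6 and 54.9 CPM in myeloid progenitor-like cells. With both libraries set to the same mix of gates, the log2 ratio of Clec4d over all kept cells was 0.63 in place of 0.82, while that of Clec4e was 1.74 in place of 1.78. The vehicle level of myeloid progenitor-like cells was also close to that of stromal-like cells and was not distinguishable from background. Their THP level was below the 158.0 CPM of THP B cell-like cells.

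How many gates had Clec4d past 2-fold depended on how the gates were drawn. It was 3 with doubled limits and 3 when cells went to the gate passed by the largest factor, with the mature neutrophil-like (1.23 and 1.09) and myeloid progenitor-like (1.11 and 1.20) gates added. With clusters in place of gates it was 2. The monocyte-like cluster, with 1.96 against 0.61 in the gate, held only 48 cells of each library. Of its gated cells, 66.7% were monocyte-like. Under TMM scaling it was 4.

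Clec4n, the gene of Dectin-2, which binds fungal mannans, was highest in MHC class II-high cells, with 284.4 CPM (275.6 to 293.4) in THP and 183.4 CPM (177.3 to 189.7) in vehicle, a log2 ratio of 0.63, or 1.03 and past 2-fold with clusters. Monocyte-like cells had 152.8 and 95.2 CPM (log2 ratio 0.68), a direction that turned when gate limits were doubled (-0.10) or clusters replaced gates (-0.64). The monocyte-like cluster held only 48 cells of each library. In macrophage-like cells the levels were 49.8 CPM (48.6 to 51.1) and 50.3 CPM (48.8 to 51.9), with overlapping intervals and a log2 ratio of -0.01, which became 0.46 with clusters and 0.27 under TMM scaling. Osteoclast-like cells had 135.2 and 113.7 CPM, a log2 ratio of 0.25 that became -0.08 without the 5% of cells with most UMIs.

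Mature neutrophil-like cells had 126.0 CPM (101.5 to 154.7) of Clec4n in THP and 47.1 CPM (35.2 to 61.8) in vehicle, from 91 and 52 UMIs, a log2 ratio of 1.40. Here Clec4e, Clec4n and Clec5a passed the 2-fold rule as higher, or 3 of 5 genes, against 3.32% of all genes in that gate. Per cell, this gate had 0.32 Clec4n UMIs in THP and 0.11 in vehicle, and stromal-like cells, of greater depth, had 0.47 and 0.10. By that measure Clec4n was not distinguishable from background in this gate, so its call carries that limit. The CPM of Clec4n was low in immature neutrophil-like cells (11.4 and 8.49 CPM) and myeloid progenitor-like cells (8.53 and 4.05 CPM). Stromal-like cells had 22.8 CPM of Clec4n in THP (24 UMIs) and 2.62 CPM in vehicle (5 UMIs), so the THP levels of the last 2 gates were below background and were not read as a difference.

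Clec5a, the gene of the DAP12-coupled MDL-1, followed another order by CPM, with its highest levels in neutrophil-like gates and progenitors. Per cell, mature neutrophil-like cells had 1.65 Clec5a UMIs in THP and 0.61 in vehicle. Myeloid progenitor-like cells had 3.885 and 3.19, and monocyte-like cells 3.32 and 2.79. Macrophage-like cells had 1.75 and 1.55, and MHC class II-high cells 1.52 and 1.17. In mature neutrophil-like cells Clec5a had 645.4 CPM (588.1 to 706.7) in THP and 256.2 CPM (227.3 to 287.9) in vehicle, a log2 ratio of 1.33 and the single gate past 2-fold. That call ended when cells passing several gates were given to the gate they passed by the largest factor, where the log2 ratio was 0.90 and Clec5a passed 2-fold in 0 gates. Immature neutrophil-like cells had 389.2 and 229.3 CPM (log2 ratio 0.76), and myeloid progenitor-like cells 212.0 and 143.8 CPM (0.56). Monocyte-like cells had 198.8 and 132.4 CPM (log2 ratio 0.58) and MHC class II-high cells 89.6 and 55.8 CPM (0.67). Levels in macrophage-like cells were 70.3 CPM (68.9 to 71.8) and 59.7 CPM (58.0 to 61.4), a log2 ratio of 0.23, and in osteoclast-like cells 79.0 and 76.8 CPM, with overlapping intervals. It was higher in THP in 7 of 7 gates, and in 6 of 7 with doubled gate limits.

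The vehicle library had a larger share of its cells in the gates with the highest Clec5a CPM. The 2 neutrophil-like gates held 2.33% and 9.82% of THP cells and 4.25% and 14.8% of vehicle cells. With the same mix of gates in both libraries, the log2 ratio of Clec5a over all kept cells was 0.46 in place of 0.27. Without the cells of both neutrophil-like gates it was 0.26.

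**Figure D3:**
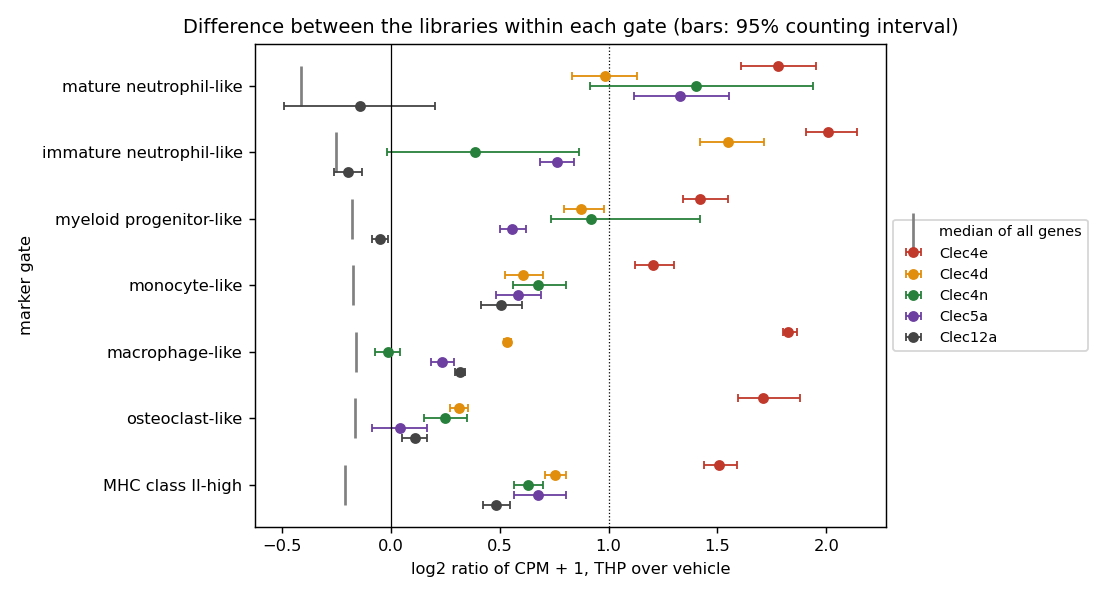
Log2 ratio of CPM + 1, THP over vehicle, of each receptor gene (coloured points with 95% counting intervals) in 7 leukocyte gates, with the median of all genes of the gate (grey bars), 0 (solid line) and 2-fold (dotted line). Clec4e lies to the right of the dotted line in all 7 gates, between 1.20 and 2.01, and Clec12a stays between -0.20 and 0.51.

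Clec12a, the gene of the inhibitory receptor, did not pass 2-fold between the libraries in any of the 7 gates, and its highest gate was 2.96-fold above its lowest in THP and 3.02-fold in vehicle. It was higher in THP in 4 gates, with 235.2 CPM (223.9 to 246.9) against 165.4 CPM (158.2 to 172.8) in monocyte-like cells, the highest log2 ratio of the gates at 0.51. MHC class II-high cells had 311.1 and 222.3 CPM (log2 ratio 0.48) and macrophage-like cells 395.8 and 317.8 CPM (0.32). In immature neutrophil-like cells it was lower, with 435.7 CPM (420.8 to 451.0) in THP and 499.9 CPM (486.8 to 513.3) in vehicle, a log2 ratio of -0.20.

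Myeloid progenitor-like cells had 459.0 and 475.0 CPM of Clec12a (log2 ratio -0.05) and mature neutrophil-like cells 155.1 and 171.1 CPM (-0.14), and in both gates the CPM intervals of the libraries overlapped. The ratio of the mature gate turned to 0.68 with halved gate limits and to 0.11 with clusters. All 7 ratios were above the median gene of their gate, and under TMM or RLE scaling Clec12a was higher in THP in 7 of 7 gates. The osteoclast-like gate, at 366.6 and 340.1 CPM (log2 ratio 0.11), had -0.05 with doubled limits. By CPM, vehicle cells of the immature neutrophil-like and myeloid progenitor-like gates had the most Clec12a. Mature neutrophil-like cells, with overlapping intervals against vehicle monocyte-like cells, were among the lowest.

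When cells were counted in place of UMIs, Clec4e and Clec4d again differed most between the libraries. With every cell thinned to 5000 UMIs, which left out 1958 THP and 1966 vehicle cells below that depth, a Clec4e UMI was seen in 60.5% of cells after THP (59.5 to 61.4) and in 27.1% after vehicle (26.1 to 28.0), and without thinning 78.7% and 52.8%. For Clec4d the thinned shares were 75.2% and 56.3% (79.8% and 66.6% unthinned), and for Clec12a 80.6% and 75.2% (87.5% and 85.4%). Clec5a was seen in 40.2% and 36.0% (70.6% and 64.2%) and Clec4n in 17.7% and 15.9% (30.3% and 27.3%). In stromal-like cells, thinned from medians of 19360 and 38370 UMIs against 18241 and 19956 in all kept cells, a Clec4e UMI was seen in 2% of 50 THP cells and 2.13% of 47 vehicle cells, and a Clec4d UMI in 7 and 6 of these cells. After thinning, a Clec12a UMI was seen in 0 of 50 THP stromal-like cells. The upper limit for cells with one at this depth is 6% by 3 counts of 50, and 7.11% by the exact interval. Without thinning a Clec12a UMI was seen in 9 of 51.

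In the macrophage-like gate at 5000 UMIs Clec4e was detected in 70.2% of the 4763 cells after THP (68.8 to 71.5) and in 31.4% of the 3016 after vehicle (29.8 to 33.1), or 90.2% and 65.3% unthinned. Cells with exactly 3 Clec4e UMIs made up 10.9% of THP and 2.42% of vehicle cells. Clec4d was seen in 95.9% and 89.0% of these cells, and its mean was 4.64 and 3.20 UMIs per cell. Both Clec4e and Clec4d were seen together in 68.1% of THP and 29.3% of vehicle macrophage-like cells, Clec4d alone in 27.8% and 59.7%, and Clec4e alone in 2.10% and 2.09%. Immature neutrophil-like cells differed from this, with Clec4e alone in 36.4% of THP and 15.1% of vehicle cells and both genes in 17.0% and 3.54%. The mature neutrophil-like gate kept only 17 THP and 23 vehicle cells at this depth, so its shares were read unthinned, with Clec4e in 88.7% and 46.3% of cells.

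**Figure D4:**
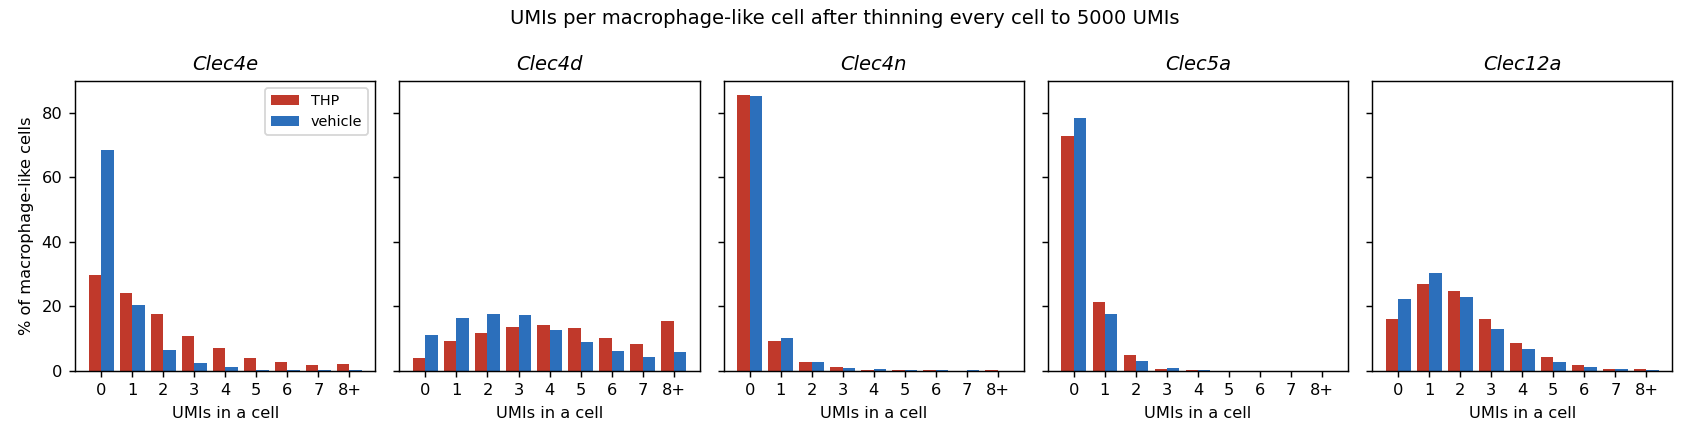
Share of macrophage-like cells (4763 THP in red, 3016 vehicle in blue) by the number of UMIs of each receptor gene, after thinning every cell to 5000 UMIs. Cells with 0 Clec4e UMIs made up 29.8% of THP and 68.6% of vehicle cells, and the Clec4d distribution is shifted to higher counts in THP, while those of Clec4n nearly coincide.

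Macrophage-like cells were further described by their thinned Clec4e UMIs. In THP cells with 0, 1 to 2 and 3 or more Clec4e UMIs (1421, 1983 and 1359 cells), Clec4d was at 856.7, 938.4 and 985.6 CPM, and Clec12a at 435.0, 395.1 and 378.4 CPM. Clec4n was at 33.9, 55.7 and 60.3 CPM and Clec5a at 60.8, 67.5 and 76.5 CPM. The chemokine gene Cxcl2 was at 643.2, 744.0 and 936.0 CPM in these classes, whereas Il1b, which encodes interleukin 1 beta, was at 86.6, 48.9 and 52.0 CPM. THP cells with 0 thinned Clec4e UMIs had more Cxcl2 and Tnf than vehicle cells with 3 or more, at 643.2 against 358.5 CPM and 139.6 against 47.7 CPM. A thinned count of 0 does not mean that a cell lacks Clec4e. The gene was seen in 70.2% of THP macrophage-like cells after thinning and in 90.2% without it. Vehicle cells showed the same direction for Clec4d, with 612.7, 692.9 and 740.0 CPM in 2068, 818 and 130 cells. Cells of 1 library are not replicates, and these values describe it.

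Clec4e was higher in THP in both cycling and other macrophage-like cells. Macrophage-like cells with cycling markers (Mki67, Top2a, Birc5, Ccnb1 and Cdk1) summing to 500 CPM or more had 371.4 CPM of Clec4e in THP and 110.0 CPM in vehicle, a log2 ratio of 1.75, and those below had 386.6 and 92.2 CPM, a ratio of 2.06. Clec4n was higher in the cells below that limit, with 75.0 and 74.5 CPM against 41.2 and 41.9 CPM, and in neither class did its intervals separate the libraries. Clec4d had log2 ratios of 0.53 and 0.55 in the classes with and without cycling markers.

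Across the 14 combinations of 7 gates and 2 libraries, the genes whose log2 level was most like that of Clec4e, among 7908 candidates, were Tlr2, a receptor for bacterial lipoproteins (Pearson r = 0.96), the immediate early gene Ier3 (0.95) and Birc3, an inhibitor of apoptosis (0.94). Those nearest Clec4d were Mvp, Agpat4 and the endolysosomal transporter gene Slc15a3 (0.95 to 0.96). Clec4n was most like Tax1bp3, the transcription factor gene Irf5 and Shisa5 (0.92 to 0.93), and Clec5a like Gm14005, Spata13 and the haptoglobin gene Hp (0.95 to 0.97). For Clec12a they were Ada, which encodes adenosine deaminase (0.90), the adhesion gene Vcam1 (0.85) and Igfbp4 (0.84). Between receptor genes the coefficients ran from -0.64 for Clec4n with Clec12a to 0.77 for Clec4d with Clec4n. Clec4e had 0.55 with Clec4d, 0.50 with Clec5a, 0.40 with Clec4n and -0.55 with Clec12a. Clec4d had -0.50 with Clec12a, and Clec5a had -0.24 with Clec4d, -0.35 with Clec4n and -0.19 with Clec12a. Points of 1 library share its scaling and gates share free RNA, so these coefficients only describe profiles.

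The adaptors Fcer1g and Tyrobp were abundant, and neither they nor Syk and Card9 passed 2-fold. Fcer1g, the partner of Mincle, MCL and Dectin-2, had 2173 CPM in THP and 1643 CPM in vehicle (log2 ratio 0.40, or 0.03 after the length correction) and was higher in THP in 7 of 7 gates, by 0.18 to 0.41. Tyrobp, the partner of MDL-1, had 2390 and 2158 CPM (log2 ratio 0.15, or -0.23 after the length correction). Syk had 75.0 and 76.1 CPM (-0.02), and Card9 24.1 and 33.2 CPM (-0.45). Within gates the log2 ratios of Card9 lay between -0.83 and -0.09, and those of Syk between -0.49 and 0.17.

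Of 22 adaptor and signalling genes, 21 were at 10 CPM or more, and of these 0 passed 2-fold higher and 1 lower, against 0.911% and 2.97% of all genes. The one was Vav3, which encodes a guanine nucleotide exchange factor, with 34.6 and 70.3 CPM, a THP to vehicle ratio of 0.499. At any size 9 were higher and 12 lower, with a median of -0.05 against -0.18 for all genes, but under TMM scaling 14 were higher and 7 lower, with 1 past 2-fold higher and 0 past 2-fold lower, so the call of Vav3 ended. The kinase gene Btk had 47.2 and 74.5 CPM (-0.64), the kinase gene Prkcd 184.1 and 130.9 CPM (0.49), and the phospholipase gene Plcg2 41.4 and 65.0 CPM (-0.64).

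Of 10 genes of phosphatases and inhibitors, which act downstream of Clec12a or limit Syk signals, 9 were at 10 CPM or more and 0 passed 2-fold in either direction. Their median log2 ratio was -0.27, with 2 higher and 7 lower, and 0.01 with 5 higher and 4 lower under TMM scaling. Inpp5d, which encodes the lipid phosphatase SHIP1, had 52.9 and 78.9 CPM (-0.57), and the ubiquitin ligase gene Cbl 86.9 and 126.5 CPM (-0.54). Ubash3b (-0.32), Cblb (-0.30) and Dok3 (-0.27) differed by less. Ptpn6 (SHP-1) had 265.5 and 231.8 CPM (0.19).

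Among 33 other C-type lectin-like receptor genes, 13 were at 10 CPM or more, with 8 higher, 5 lower, 0 past 2-fold and a median of 0.21. Under TMM scaling 9 were higher, 4 lower and 2 past 2-fold. Clec4a1, a neighbour family member of the Dectin-2 group, had 124.4 CPM in THP and 61.8 CPM in vehicle, just under 2-fold at 0.997, and Cd209g 11.5 and 5.28 CPM (0.99). Cd209f had 17.2 and 10.6 CPM (0.66), the activation marker gene Cd69 19.7 and 12.8 CPM (0.59), and Clec4b2 8.98 and 17.0 CPM (-0.85). The difference in Clec4e was thus larger than that of any of these 13 genes.

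The list of cytokine, chemokine and enzyme genes that this pathway can induce stood higher. Of 20 genes, 9 were at 10 CPM or more, of which 7 passed 2-fold higher and 0 lower, against 0.911% and 2.97% of all genes, with a median log2 ratio of 2.39. At any size 8 were higher and 1 lower, the immediate early gene Egr1 with 14.6 and 19.2 CPM (-0.37). Genes like these were already known to be high in this THP library when the list was drawn up, so the list is not independent evidence of its direction. Cxcl1 had 54.3 and 5.50 CPM (3.09), Ccl4 229.5 and 30.2 CPM (2.88), Il1b 67.3 and 9.58 CPM (2.69), Tnf 117.0 and 18.9 CPM (2.56) and Ccl3 184.5 and 34.5 CPM (2.39). The same genes are known targets of other innate receptors, and Il6, Il12b, Il23a, Csf2 and Nos2 were each below 1 CPM in both libraries.

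Myeloid transcription factor genes had ratios in both directions. Of 16 genes, 15 were at 10 CPM or more, with 9 higher, 6 lower and a median of 0.03, or 11 higher and 4 lower under TMM scaling. Relb, an NF-kB subunit gene, alone passed 2-fold, with 53.6 and 21.2 CPM (1.30), and under TMM scaling 3 genes passed as higher. C/EBP family genes went both ways, with Cebpd at 281.5 and 141.6 CPM (0.99) and Cebpb at 466.3 and 257.7 CPM (0.85), against Cebpe at 38.8 and 74.9 CPM (-0.93) and Cebpa at 18.3 and 35.3 CPM (-0.91). Cebpe is itself among the markers that define the immature neutrophil-like gate, which held fewer THP cells. What part the mix of cells had in the ratios of these genes was not tested.

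**Figure D5:**
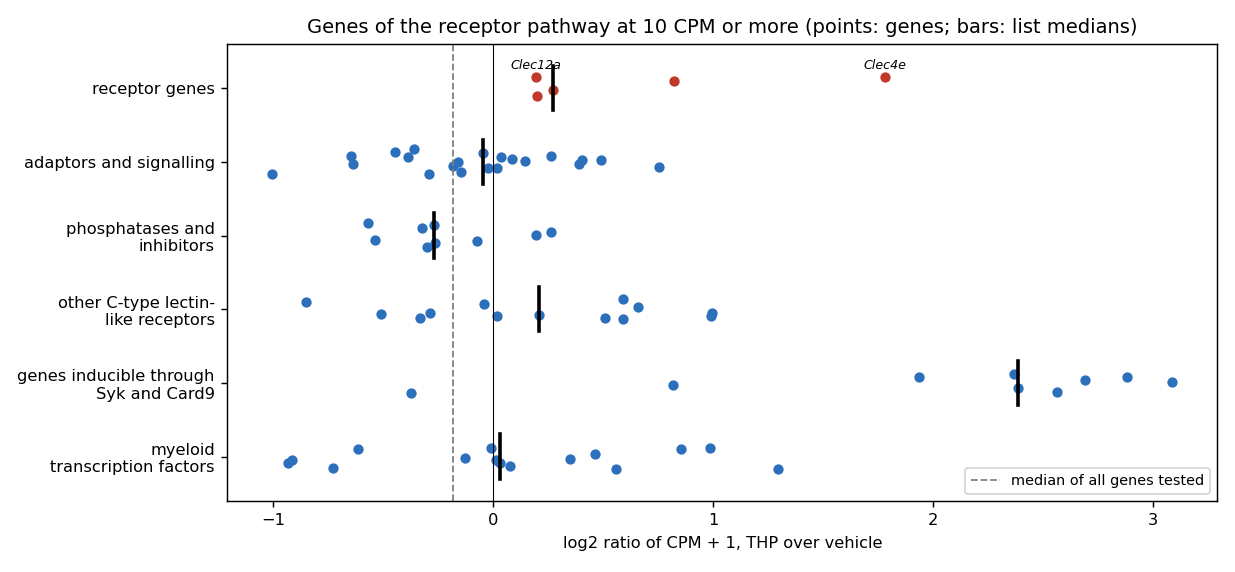
Log2 ratio of CPM + 1, THP over vehicle, of the 5 receptor genes (red) and of genes at 10 CPM or more in 5 related lists (blue), with list medians (black bars), 0 (solid line) and the median of all genes (dashed line). The inducible cytokine and chemokine genes have a median of 2.39, and the other lists have medians between -0.27 and 0.21.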

How the data were processed

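Single-cell libraries of 1 THP-treated and 1 vehicle culture were analysed from the UMI counts of each gene in each barcode that the authors deposited, in sparse matrix files that give software version 3.1.0 and format version 2, per the file headers. Cell Ranger, STAR, bcl2fastq and the build mm10 are named in the submitters' processing notes, with tool versions not given in the sources used here. Barcodes had at least 501 (THP) and 503 (vehicle) UMIs as deposited. Barcodes were kept with at least 500 genes, 1000 UMIs and at most 10% mitochondrial UMIs. No doublet caller was run and no doublet was removed. A gate left out cells that reached a marker list it neither required nor ignored. The immature neutrophil-like gate required both the neutrophil and the immature neutrophil list. An alternative left out the 5% of cells with most UMIs.

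UMIs were summed per library and gate and divided by the total to give CPM, with exact Poisson intervals, and shares have exact (Clopper-Pearson) binomial intervals, both at 95%. Ratios are log2 of CPM + 1, which understates differences of low genes. The counting intervals of log2 ratios are those of the CPM ratio without the added 1, so for low genes they are not centred on the ratio given. The size rule was 10 CPM and 2-fold. Shares of cells used counts thinned at random to 5000 UMIs per cell. Gates were cut at limits of 300 to 32000 CPM of summed markers, set on the distributions of both libraries together after these had been seen. The length correction subtracted a running median of 501 genes and added back the median ratio of all genes, and 99.6% of genes had a length. Clusters (scanpy 1.11.5, igraph 0.11.9), TMM (edgeR 4.0.16) and RLE (DESeq2 1.42.0) factors served as alternatives, the factors within gates, the cycling split and the fit without neutrophil-like gates being added after the data were seen. The members, lists and markers were chosen with earlier results of these data known. Of each list, up to 5 genes with the widest ratios at 10 CPM or more are named, along with the adaptors, Syk, Card9 and Ptpn6, and with Cxcl2, Egr1 and the genes under 1 CPM, which were added after their values were seen, and the 3 genes most like each receptor gene. Promoters come from RefSeq (GRCm38.p6); no entry for Clec4n was used. Some genes of the lists are not reported here by name. The size rule was also run on simulated counts drawn from the levels of the vehicle library.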

Additional observations from a re-analysis of the deposited data

Results flagged for a closer look

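Clec12a had opposite signs in gates of the same comparison. Its log2 ratio was 0.51 in monocyte-like cells and -0.20 in immature neutrophil-like cells, and the counting intervals of both excluded 0. The difference between the gates was not tested, since each gate has 1 library per group. In the immature neutrophil-like gate the sign turned to 0.09 under TMM and 0.08 under RLE scaling. In the monocyte-like gate the ratio fell to 0.20 with halved gate limits and 0.22 with clusters, where the cluster held 48 cells of each library.

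The 1070 THP and 606 vehicle barcodes left out by the cell filter, which no comparison above uses, also held receptor UMIs. Clec4e had 424.0 CPM (397.8 to 451.5) in THP and 87.4 CPM (72.8 to 104.2) in vehicle, a log2 ratio of 2.27. Clec4d had 552.0 and 231.5 CPM (log2 ratio 1.25), Clec5a 155.4 and 104.2 CPM (0.57) and Clec4n 102.4 and 72.0 CPM (0.50). Clec12a had 465.7 and 452.5 CPM (0.04), with overlapping intervals. What these barcodes are was not tested.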

How the results depend on the processing

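No paired analysis was possible because each group has 1 library. Clec4e was at least 2-fold higher in THP under every alternative tried over all kept cells and in 7 of 7 gates under each gate alternative. In the order Clec4e, Clec4d, Clec4n, Clec5a and Clec12a, the log2 ratios over all kept cells were 2.07, 1.11, 0.48, 0.55 and 0.48 under TMM scaling, 2.06, 1.10, 0.47, 0.55 and 0.47 under RLE scaling, and 1.72, 0.88, 0.44, 0.53 and 0.11 with equal weight per cell. With the same mix of gates, Clec4e had 1.74, Clec4d 0.63, Clec4n 0.25 and Clec5a 0.46. Without the 5% of cells with most UMIs, Clec4d had 0.88, Clec4n 0.25, Clec5a 0.31 and Clec12a 0.16, and without the neutrophil-like gates Clec4d had 0.79, Clec5a 0.26 and Clec12a 0.23. Clec4e had 1.74 with a pseudocount of 5 CPM. Corrected for length, Clec4e had 1.98, Clec4d 0.55, Clec4n -0.051 and Clec5a 0.34. The length correction, in which the median of all genes is added back, alone turned Clec4n below 0.

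Within gates, Clec4n reversed to -0.10 (doubled limits) and -0.64 (clusters, 48 cells of each library) in monocyte-like cells and to -0.080 in osteoclast-like cells without the top 5%. Clec12a reversed in osteoclast-like cells to -0.053 (doubled limits) and -0.083 (cells given to the gate passed by the largest factor), and in myeloid progenitor-like cells to 0.042 (clusters), 0.24 (TMM) and 0.23 (RLE). In immature neutrophil-like cells it reversed to 0.087 (TMM) and 0.080 (RLE), and in mature neutrophil-like cells it turned from -0.14 to 0.14 under TMM and RLE, 0.68 with halved limits and 0.11 with clusters. It was thus higher in 7 gates under TMM and in 7 under RLE. Clec5a lost its 2-fold call in mature neutrophil-like cells (0.90) when cells went to the gate passed by the largest factor, and gained one in immature neutrophil-like cells under TMM (1.05) and RLE (1.04). The cause was not tested. The size rule called 187 genes higher and 1387 lower at 1.5-fold, and 138 and 69 under TMM as under RLE, or 66.7% of calls higher in place of 23.5%.

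The differences in the share of cells with a UMI, in percentage points, were 33.4 for Clec4e, 18.9 for Clec4d, 1.76 for Clec4n, 4.12 for Clec5a and 5.47 for Clec12a. At 2000 UMIs Clec4e had 24.1 and Clec12a 2.83, and without thinning the values were 26.0, 13.1, 2.94, 6.46 and 2.07. Depth limits the mature neutrophil-like and stromal-like gates most, with 722038 and 1053013 THP UMIs. Counting intervals do not cover differences between cultures.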
